A study of Homo sapiens with 4 samples.

Results

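The intergenic and gene-end peaks of ZNF416 are places of FLAG pull-down signal that lie outside genes or at their ends, away from start sites and off annotated repeats. A peak was counted here when it lay on an assembled chromosome, its centre was more than 1000 bp from the nearest transcription start site (TSS), the authors' annotation called it intergenic or TTS (transcription termination site), and the detailed annotation named no repeat. None of these criteria uses the strength of the signal. The rule took 235 of the 1386 listed peaks, 17.0% (exact Clopper-Pearson 95% interval 15.0 to 19.0), and 21.8% of the 1080 peaks on assembled chromosomes (19.3 to 24.3). Intergenic peaks made up 213 of them, and 22 were at a gene end.

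The libraries came from IMR90, a line of human lung fibroblasts, carrying ZNF416-FLAG from a lentivirus after puromycin selection. There were 2 ZNF416-FLAG ChIP libraries and 2 input libraries without antibody, numbered 1 and 2 in each group, and the growth text of the labels describes the same tagged cells for all 4. Cells were fixed with 1% formaldehyde for 10 minutes, and the DNA was read for 51 bases from both ends. The tagged protein was expressed from an added gene whose promoter is not given in the sources used here, and no FLAG pull-down from untagged cells was analysed here. All 4 libraries enter only through the authors' pooled hg19 peak list, so no value below has a spread between replicates, and the depth of each library is unknown.

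ZNF416 belongs to the KRAB zinc finger proteins. Such proteins read DNA through a row of zinc fingers, and the KRAB domain of many of them recruits the corepressor TRIM28, through which chromatin can be silenced. Many family members bind transposable elements, and others sit at promoters or at single-copy DNA. Stretches between genes hold enhancers, insulators and unannotated start sites, and an enhancer need not act on the gene with the nearest TSS. In the account that follows, a gene named beside a peak is only the gene of the nearest annotated start. Distances upstream or downstream of a gene are counted from that start, not from the end of the gene.

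The intervals printed here treat peaks as units and cover counting error only. Peaks of 1 list are not replicates of the experiment, so classes of peaks were set side by side without a test, and no difference between them was tested.

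Distances over 10 kb to the nearest TSS were found for 16 of the 20 strongest peaks (80.0%, 56.3 to 94.3), beside 169 of all 235 (71.9%, 65.7 to 77.6). Strength is given by the Peak Score, the authors' own value for each peak on a scale that is not stated, which serves here only to rank and describe peaks within the list, where it runs from 13 to 355. At the top stood a peak of score 321 near SLC8A1-AS1, a long non-coding RNA gene antisense to a sodium-calcium exchanger gene (chromosome 2, 40102511 to 40103013). It lay 42012 bp upstream, ranked the fourth in the whole list and was 503 bp wide, and the closest other listed peak was 750974 bp away. The runner-up, of score 253, lay 18335 bp downstream of TICAM1, which encodes an adaptor of Toll-like receptors (chromosome 19, 4813289 to 4813550). The peak of score 225 lay 18281 bp downstream of the microRNA gene MIR4492 (chromosome 11, 118799633 to 118799763). A peak of score 199 lay 29988 bp downstream of TNKS1BP1, the gene of a tankyrase-binding protein (chromosome 11, 57062354 to 57062522).

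MIR11181 was nearest to a peak of score 186 that lay 129562 bp downstream (chromosome 15, 88359819 to 88360055). A score of 172 was shared by a peak 18756 bp upstream of TSKU, the gene of the secreted protein tsukushi (chromosome 11, 76474440 to 76474763), and one near the zinc finger pseudogene ZSCAN12P1 (chromosome 6, 28072607 to 28072840). LOC102724957 was the gene nearest to a score of 169, 15963 bp upstream (chromosome 11, 15649394 to 15649542). For CAVIN2, which encodes a coat protein of caveolae, a score of 162 was listed 95889 bp upstream (chromosome 2, 192807631 to 192807776). A peak of the same score lay 69546 bp upstream of CCDC112 and was 423 bp wide (chromosome 5, 114701686 to 114702108). The peak near PNPLA6, a phospholipase gene, scored 153 at 27359 bp downstream (chromosome 19, 7627896 to 7628029). Below that score came 4 peaks within 10 kb of a TSS, near MIR6742 (score 145, 3490 bp), MARCHF9 (143, 5426 bp), MIR1257 (143, 1515 bp) and NKX1-1 (137, 4191 bp). DUSP4, the gene of a phosphatase that switches off MAP kinases, was nearest to one with a score of 131 that lay 143033 bp upstream (chromosome 8, 29351169 to 29351299).

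Among the 20 strongest, 11 were nearest to a protein-coding gene, 8 to a non-coding RNA gene and 1 to a pseudogene. Of the 16 beyond 10 kb, 13 lay at up to 100 kb and 3 farther away. CpG islands held 3 of the 20 and gene ends 2.

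**Figure D1:**
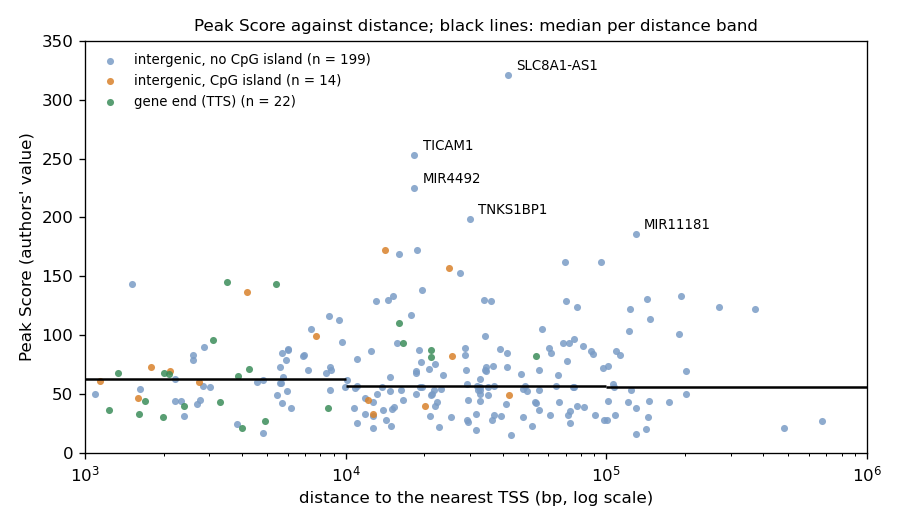
Peak Score (vertical axis, the authors' value) against the distance to the nearest TSS in bp (horizontal log axis) for the 235 peaks, coloured by annotation, with the 5 strongest named. The black lines, medians of 62.5, 56.5 and 56 in the 3 distance bands, are nearly level.

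The score did not move with distance in any visible way. Its median was 58 over all 235 peaks (order-statistic 95% interval 56 to 67), with quartiles of 43 and 85.5 and a range of 15 to 321. Within 10 kb of a TSS the median was 62.5 (56 to 70), over 10 to 100 kb it was 56.5 (53 to 68), and beyond 100 kb it was 56 (43 to 101). Across the 235 peaks Spearman's rho between score and distance was 0.01, which is given as a description over peaks that share the same libraries. A score of 100 or more was held by 38 of the 235 peaks, or 16.2% (11.7 to 21.5), next to 16.1% of all peaks on assembled chromosomes.

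Score and width resembled those of the other classes. The median score was 62 (56 to 63) for the 329 peaks within 1 kb of a TSS, 60.5 (57 to 65) for the 306 intragenic non-repeat peaks and 57.5 (53 to 65) for the 210 repeat peaks. The median width was 139 bp (131 to 149; quartiles 116 and 196.5), against 135 bp, 138.5 bp and 145 bp in those classes. The narrowest width in the list, 107 bp, was shared by 21 of the 235 peaks, 8.94%, beside 9.17% of all peaks on assembled chromosomes. Width and score were weakly related, with a Spearman's rho of 0.10 and a Pearson's r of 0.30 over the 235 peaks.

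**Figure D2:**
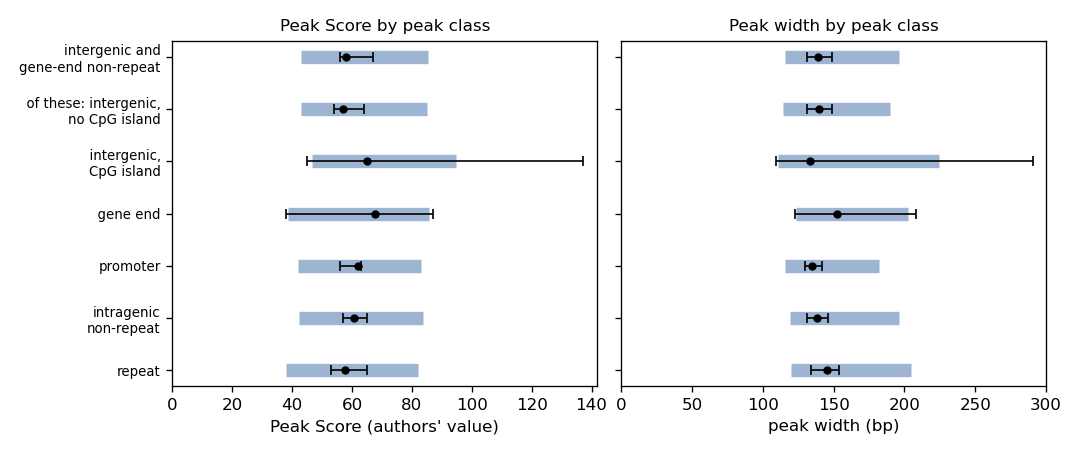
Peak Score (left) and width in bp (right) by peak class on assembled chromosomes, with the intergenic and gene-end peaks also split by annotation; bars span the quartiles, dots are medians and whiskers their order-statistic 95% intervals. The medians of the 4 main classes lie between 57.5 and 62 for the score and between 135 and 145 bp for the width.

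The 5 widest peaks all scored above 58, the median of the 235 peaks. A peak of 729 bp and score 110 was annotated to the end of LOC101929897, a non-coding transcript now named IKBKB-DT (chromosome 8, 42112040 to 42112768). The peaks near SLC8A1-AS1 and CCDC112 followed. MIR4293 was nearest to one of 406 bp and score 80 at 11059 bp upstream (chromosome 10, 14436133 to 14436538). A peak of 378 bp and score 87 was assigned to the pseudogene LOC440895 (chromosome 2, 110683785 to 110684162).

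Distances to the nearest TSS ran from 1090 to 672998 bp, with a median of 21517 bp (18335 to 29220) and quartiles of 8578.5 and 55164 bp. The 1000 bp of the rule sets the lower end. Within 10 kb lay 66 peaks (28.1%), over 10 to 100 kb away lay 140 (59.6%), and 29 (12.3%) were farther than 100 kb. For the intragenic non-repeat peaks the median was 14386 bp (11077 to 17769), and for the 118 repeat peaks with an intergenic or gene-end annotation it was 23702 bp (16091 to 33702).

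The peak farthest from any start was assigned to KLF4, a Krüppel-like transcription factor gene, 672998 bp upstream with a score of 27 (chromosome 9, 110924971 to 110925126). One of score 21 lay 479763 bp downstream of DMAC1, a mitochondrial complex I assembly gene (chromosome 9, 7319952 to 7320079). The peaks near MIR8054 (371026 bp upstream) and MIR125B1 (270758 bp downstream) were also remote, yet scored 122 and 124. At the near end, peaks lay 1090 bp upstream of UBTF, the gene of a ribosomal RNA transcription factor (score 50; chromosome 17, 42299681 to 42299844), and 1142 bp upstream of the mitochondrial iron transporter gene SLC25A28 (score 61; chromosome 10, 101381284 to 101381392). Gene-end peaks near LOC644656 (1235 bp) and the TWEAK receptor gene TNFRSF12A (1339 bp) came next, with scores of 36 and 68. The fifth nearest, at 1515 bp downstream of MIR1257, scored 143 (chromosome 20, 60527063 to 60527343). Just outside the threshold were 4 gene-end peaks within 1000 bp of a TSS, nearest to PARD3-AS1 (978 bp, score 73), MIR6501 (488 bp, score 50), SNORD116-8 (436 bp, score 30) and SCO2 (168 bp, score 83).

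Downstream of the nearest TSS lay 102 of the 235 peaks, 43.4% (37.0 to 50.0), and 133 lay upstream, next to 60% downstream among all peaks on assembled chromosomes. The side is tied to the annotation class, since a peak inside a gene is downstream of that gene's own start by construction. Among the 213 intergenic peaks the downstream share was 40.4% (33.7 to 47.3), and among the 118 intergenic and gene-end peaks on repeats it was 28.0% (20.1 to 37.0). Beyond 100 kb, 19 of 29 peaks were downstream (65.5%, 45.7 to 82.1), against 56 of 140 at 10 to 100 kb (40.0%, 31.8 to 48.6) and 27 of 66 within 10 kb (40.9%, 29.0 to 53.7). How random intergenic positions divide between the sides was not measured.

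**Figure D3:**
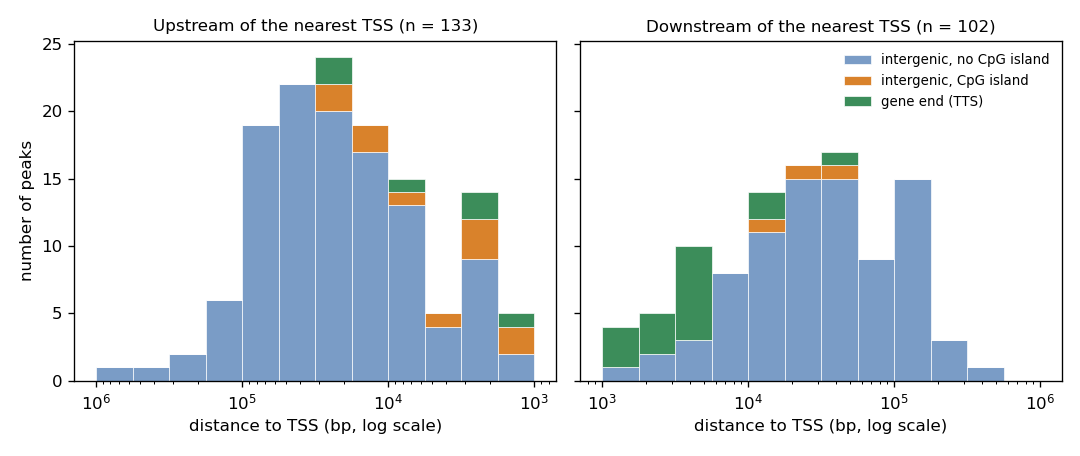
Number of peaks (vertical axis) by distance to the nearest TSS (bp, log axis) upstream (left, 133 peaks) and downstream (right, 102 peaks), stacked by annotation. Most gene-end peaks close to a TSS lie on the downstream side, and most CpG island peaks lie upstream.

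A protein-coding gene was nearest to 151 of the 235 peaks, 64.3% (57.8 to 70.4), beside 76.9% of all peaks on assembled chromosomes. Non-coding RNA genes were nearest to 75, 31.9% (26.0 to 38.3), beside 20.2% of all. Pseudogenes were nearest to 7, and a small nucleolar RNA gene and the signal recognition particle RNA gene RN7SL2 to 1 each. The non-coding share was 20.3% (15.9 to 25.2) for intragenic non-repeat peaks, 10.0% (7.01 to 13.8) for peaks within 1 kb of a TSS and 25.4% (17.9 to 34.3) for intergenic and gene-end peaks on repeats. It was 28.8% within 10 kb of a TSS, 33.6% at 10 to 100 kb and 31.0% beyond. The median score was 59 (52 to 73) beside non-coding genes and 57 (53 to 66) beside coding genes.

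**Figure D4:**
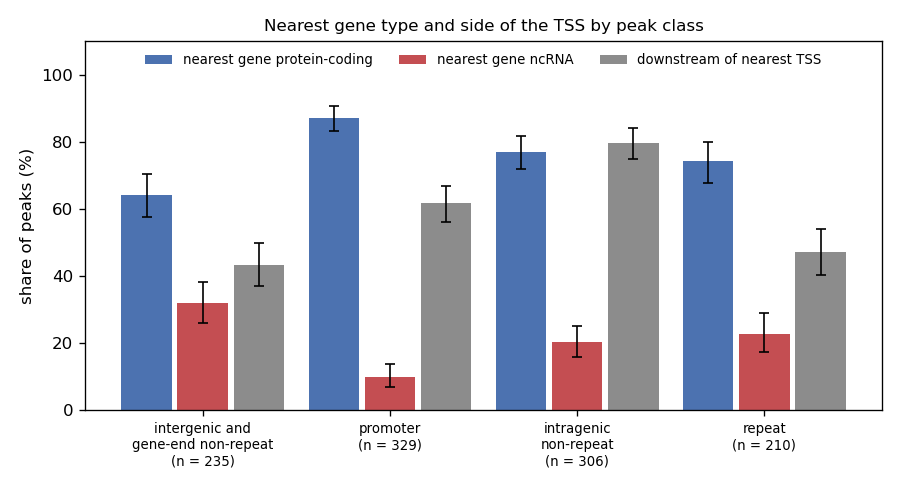
Share of peaks (%) whose nearest gene is protein-coding (blue) or ncRNA (red), and share downstream of the nearest TSS (grey), in 4 classes of peaks on assembled chromosomes; error bars are exact Clopper-Pearson 95% intervals over peaks. The ncRNA share was 31.9% for intergenic and gene-end non-repeat peaks and 10.0% for promoter peaks.

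Of the 75 peaks beside non-coding genes, 31 were beside a gene with a LINC symbol, 13 beside one with a LOC symbol and 4 beside an antisense transcript. By RefSeq gene type, 19 were nearest to a microRNA gene, 8.09% of the 235 peaks (4.94 to 12.3), against 6.86% (4.30 to 10.3) of the intragenic non-repeat peaks. The peaks beside microRNA genes had a median score of 80 (59 to 133) and a range of 45 to 225. Each of the 19 genes had 1 such peak. RefSeq (GRCh38.p14) gave mature sequences for 17 of the 19 genes, 25 in all, and no 2 of these sequences shared a seed. MIR548AO and MIR548H2 had none, so their seeds could not be compared with that of MIR548AP, which shares their MIR548 name. The microRNAs below identify the genes beside the strongest of these peaks, with miR-125b and let-7b added as well-studied microRNAs. They are shown 5′ to 3′ with the seed, bases 2 to 8, in capitals.
hsa-miR-4492: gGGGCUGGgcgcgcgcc
hsa-miR-11181-5p: gUCUGACCaaccuccucccgc
hsa-miR-6742-5p: aGUGGGGUgggacccagcuguu
hsa-miR-1257: aGUGAAUGauggguucugacc
hsa-miR-548ap-5p: aAAAGUAAuugcggucuuu
hsa-miR-125b-5p: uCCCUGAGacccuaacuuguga
hsa-let-7b-5p: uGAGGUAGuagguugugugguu

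By the rule, these peaks lay more than 1 kb from the microRNA genes themselves. The peak of score 145 assigned to MIR6742 lay 3490 bp downstream of it, at the end of TRIM11, a ubiquitin ligase gene (chromosome 1, 228581205 to 228581435). MIR548AP was 15252 bp from a peak of score 133 (chromosome 15, 86384059 to 86384177). The let-7b gene MIRLET7B was nearest to a peak of score 45 at 2759 bp downstream (chromosome 22, 46512265 to 46512386). Among the long non-coding genes, LOC102724434 was nearest to a score of 138 that lay 19571 bp upstream (chromosome 7, 115946219 to 115946486), and LOC101929116 to one of score 133 at 192935 bp downstream (chromosome 9, 128845185 to 128845333).

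CpG islands, stretches rich in CG dinucleotides that most often mark promoters, held 14 of the intergenic peaks by the detailed annotation. That was 5.96% of the 235 (3.29 to 9.79), beside 6.02% of all peaks on assembled chromosomes, and 5.23% of intragenic non-repeat peaks. These shares count labels and do not measure overlap with islands. A peak labelled as a repeat or a gene end could not also be labelled as an island. The count was thus 0 by construction for the 210 repeat peaks and for the 22 gene-end peaks. Of these 14 peaks, 11 were nearest to a coding gene, 11 lay upstream, and 7 lay within 10 kb of a TSS. Their median distance was 9959 bp (1790 to 24900), against 29220 bp (21517 to 34157) for the 199 intergenic peaks off CpG islands. Their scores ran from 33 to 172 with a median of 65 (45 to 137), against 57 (54 to 64) off islands.

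The strongest of the CpG island peaks was the one near ZSCAN12P1. Next was a peak of score 157 at 24900 bp downstream of the zinc finger gene ZNF786 (chromosome 7, 148762819 to 148763001). The homeobox gene NKX1-1 was 4191 bp from an upstream peak with a score of 137 (chromosome 4, 1404267 to 1404575). The island peak near PTPRH, a receptor tyrosine phosphatase gene, scored 99 (chromosome 19, 55728519 to 55728656). ZFP36, whose protein destabilises inflammatory mRNAs, was 2731 bp from an upstream island peak with a score of 60 (chromosome 19, 39894699 to 39894814), chosen here after its value was seen. NPAS4, an activity-induced transcription factor gene, had one of score 45 at 12200 bp upstream (chromosome 11, 66176214 to 66176337).

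At the 22 gene ends the median score was 67.5 (38 to 87), with a range of 21 to 145, and the median distance to a TSS was 3671 bp (2008 to 8563). The transcript that ends there belonged to the gene with the nearest TSS in 12 cases, and all 12 lay downstream of that TSS, as a peak at the end of its own gene must. In the other 10 a different gene's start was closer, 4 times downstream and 6 times upstream. The strongest gene-end peak after that of TRIM11 lay at the end of MARCHF9, a membrane-bound ubiquitin ligase gene, with a score of 143 (chromosome 12, 58154250 to 58154374). ACTA1, the skeletal muscle actin gene, had a peak of score 96 at its end, 3086 bp from its start (chromosome 1, 229566697 to 229566818). VGLL3, which encodes a cofactor of TEAD transcription factors, had one of score 82, 53821 bp from its start (chromosome 3, 86986394 to 86986563). The end of the metallothionein gene MT2A carried a score of 44 (chromosome 16, 56644128 to 56644262). The peaks assigned to COMMD5 and ELAVL3 lay at the ends of the zinc finger genes ZNF7 and ZNF653, with scores of 27 and 33. VGLL3, MT2A, COMMD5 and ELAVL3 were named after their values had been seen.

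The 13 fixed gene lists cover fibroblast activation, inflammation, stress, KRAB zinc fingers and markers of other cell types, with 620 different genes in all. Of these, 14 genes were nearest to 1 peak each, so 14 of the 235 peaks (5.96%) had a listed nearest gene, beside 6.85% of all peaks on assembled chromosomes. Those 14 peaks had a median score of 56.5 (30 to 85), against 58 for all 235. In 5 lists 2 peaks were counted, in 4 lists 1, and in 4 lists none.

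Among 46 contractile and actin genes, ACTA1 and CNN1 were nearest to a peak. The peak of CNN1, which encodes the smooth muscle protein calponin, scored 57 and lay 2834 bp upstream (chromosome 19, 11646777 to 11646887). Of 41 genes of matrix crosslinking and remodelling, the lysyl oxidase gene LOXL4 was 41708 bp from an upstream peak with a score of 85 (chromosome 10, 100069606 to 100069712). TIMP2, a metalloproteinase inhibitor gene, had one with a score of 73, 8742 bp upstream (chromosome 17, 76930130 to 76930293). In the extracellular matrix list of 55 genes only the basement membrane gene NID1 was hit, with a score of 53 at 32154 bp upstream (chromosome 1, 236260417 to 236260672). No collagen or fibronectin gene of that list was nearest to such a peak.

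Of 49 growth factor and receptor genes, PDGFB was 32796 bp from an upstream peak with a score of 53 (chromosome 22, 39673685 to 39673882) and PDGFA one of score 30 at 48033 bp downstream (chromosome 7, 511348 to 511549). Both encode chains of platelet-derived growth factor, a mitogen of fibroblasts. Among 31 YAP and TEAD target genes, CCN2 alone was nearest to a peak, of score 19 and 31524 bp upstream, and 3 of the 235 peaks scored lower. The lists of adhesion and integrin genes (34 genes), TGF-beta and BMP signalling (51) and KRAB zinc fingers with TRIM28 (101) had no such peak. That last list is not complete, and the KRAB zinc finger genes ZNF786, ZNF212 and ZNF287, which are not on it, were nearest to peaks of score 157, 59 and 40. Peaks of the other 3 classes were nearest to genes of these lists 2, 6 and 12 times. Markers of epithelial, endothelial and immune cells (43 genes), were without one in this set and were nearest to 3 peaks of the other classes.

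The remaining listed genes encode regulators and stress-response proteins. Of 46 inflammatory genes, TICAM1 and IRF1 were nearest to a peak, and that of the interferon regulatory factor gene IRF1 scored 83 at 6920 bp upstream (chromosome 5, 131833317 to 131833454). KLF2 and KLF4 were the 2 of 48 regulators of lung mesenchyme. The peak of KLF2, a transcription factor gene induced by fluid shear stress in endothelium, scored 79 at 5899 bp downstream (chromosome 19, 16441450 to 16441623). ATF3, a stress-induced bZIP factor gene, was the 1 hit among 42 AP-1 and related genes, with a score of 38 at 8563 bp upstream and at the end of the non-coding gene LINC01740 (chromosome 1, 212730027 to 212730199). GADD45B, a stress sensor gene, was the 1 hit among 35 p53 and stress genes, with a score of 56 at 19211 bp downstream (chromosome 19, 2495196 to 2495477).

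The 235 peaks were mostly solitary. Another listed peak lay within 10 kb, centre to centre, of 20 of them, 8.51% (5.28 to 12.8), beside 13.3% of all peaks on assembled chromosomes. The share was 15.0% (11.2 to 19.5) for intragenic non-repeat peaks, 14.6% (11.0 to 18.9) for promoter peaks and 16.1% (9.98 to 24.0) for intergenic and gene-end peaks on repeats. Of the 20 with a close neighbour, 17 had it within 1 kb. The neighbour was another intergenic or gene-end non-repeat peak for 10 of the 20, a repeat peak for 8, an intragenic peak for 2 and a promoter peak for 0 (upper limit of the exact interval 16.8%). The median distance to the closest listed peak was 286014 bp (185664 to 399497).

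**Figure D5:**
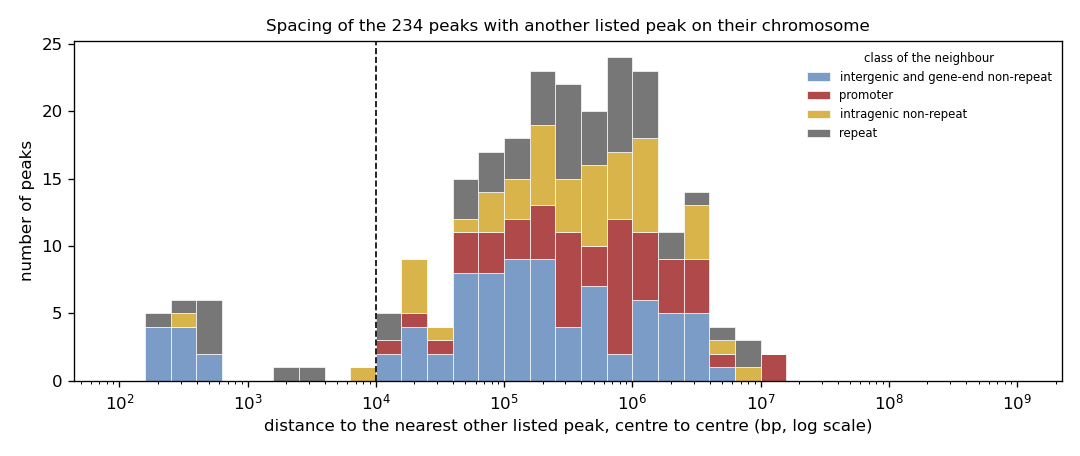
Number of intergenic and gene-end non-repeat peaks (vertical axis) by the centre-to-centre distance to the closest other listed peak (bp, log axis), stacked by the class of that neighbour, for the 234 peaks with one on their chromosome. A small group of 17 peaks sits below 1 kb, and the bulk lies above 10 kb (dashed line).

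Chaining peaks within 10 kb gave 6 pairs and left 223 peaks single. The pair upstream of PTPRH was strong in both members, with scores of 105 and 99 at 370 bp between centres (chromosome 19, 55728160 to 55728656). At the end of IKBKB-DT the pair scored 110 and 93 at 487 bp (chromosome 8, 42111858 to 42112768). LINC00113 had a pair of scores 69 and 50 at 202465 and 202262 bp upstream (chromosome 21, 28892180 to 28892499), and the adhesion gene SDK1 one of scores 63 and 50 (chromosome 7, 3307946 to 3308230). TNFRSF18, a TNF receptor family gene, had scores of 62 and 21 (chromosome 1, 1137032 to 1138065), with a repeat peak of score 50 between them. LINC02606 had the weakest pair, with scores of 39 and 23 (chromosome 1, 9473575 to 9474110). In these pairs the peak edges were 61 to 578 bp apart, and whether the caller divided 1 stretch of signal was not tested.

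The 235 peaks were assigned to 220 genes, 143 of them coding. No gene was nearest to more than 2 of these peaks, and 15 genes were nearest to 2, of which 6 are the pairs above. Among the others, the circadian clock gene ARNTL had scores of 58 and 89 at 106599 and 60269 bp upstream, and the pseudokinase gene PRAG1 had 97 and 72 on opposite sides of its start. LINC01778 had scores of 22 and 99, LINC01629 had 36 and 88, and ATP6AP1L had 40 and 86. SEPTIN9, a cytoskeletal septin gene, had scores of 54 and 82 at 47841 and 25621 bp upstream.

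On chromosome 2, a pair of genes was hit at distant places. LOC440895 was nearest to peaks of score 87 and 81 that were 518702 bp apart, at 21294 and 21282 bp upstream of a start of that name (the second at 111202513 to 111202838). Both were annotated to the end of the same transcript, which RefSeq assigns to LIMS4. LINC01123 had peaks of score 86 and 43 that were 372261 bp apart, at 12565 and 12719 bp downstream (110757053 to 110757192 and 111129320 to 111129447). The distances to the start thus differed by 12 bp and 154 bp within the pairs, so the annotation holds each of these genes at 2 places. Whether reads were shared between copies of this sequence was not tested.

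Some genes were also nearest to peaks of other classes. Of the 220 genes, 20 (9.09%) were also nearest to a peak of another class: 14 to a repeat peak, 5 to an intragenic non-repeat peak and 1 to a promoter peak. Counted the same way on assembled chromosomes, the share was 4.85% of the 309 genes of promoter peaks, 7.89% of the 279 of intragenic non-repeat peaks and 13.1% of the 199 of repeat peaks. The gene with a promoter peak was NPAS4, whose promoter peak scored 153 and lay 919 bp downstream in intron 1 (chromosome 11, 66189364 to 66189486), against 45 for its upstream CpG island peak. No interaction between the places was measured.

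By chromosome, the counts ran from 31 on chromosome 1 to 1 on chromosome 18 among the numbered chromosomes, with 17 each on chromosomes 2 and 10 and 16 on chromosome 9. As a share of each chromosome's listed peaks, chromosome 14 held 11 of 29 (37.9%) and chromosome 19 held 12 of 76 (15.8%), while chromosome 4 held 2 of 33 (6.06%). Chromosome X had 0 of its 5 listed peaks in this set, and 1 peak was listed on chromosome Y, near LINC00685, in the end stretch that X and Y share. The placement on chromosome Y is that of the list, and which copy of that stretch the signal came from was not tested.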

How the data were processed

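FLAG ChIP-seq and input libraries of IMR90 cells entered through 1 peak list on hg19. Per the file headers, HOMER annotated narrow peaks after the removal of blacklisted regions. HOMER, MACS2, Bowtie2, Picard and deepTools are named in the submitters' processing notes, without versions or roles. The sources used here do not give how replicates and input were combined. The Peak Score is the deposited score of the authors' peak caller, and its scale is not stated. Distances, annotation classes, repeats and gene types are those of the authors' list. Width is the end minus the start, plus 1.

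RefSeq (GRCh38.p14) served for names, gene types and microRNA sequences, and the gene identifiers of 234 of the 235 peaks matched. A gene name that a spreadsheet had turned into a date was restored from its identifier. Computations used Python 3.11.15, pandas 2.3.3 and SciPy 1.17.1, and the interval and neighbour functions were tested on simulated data. Shares carry exact Clopper-Pearson 95% intervals and medians binomial order-statistic 95% intervals. No test was run.

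The set of peaks, the gene lists and the naming rule were chosen with earlier results of these data known. The rule names the genes of the 20 strongest peaks, up to 3 peaks per list, the 5 farthest, 5 nearest and 5 widest peaks, up to 10 pairs, up to 10 genes with 2 or more peaks, and up to 10 genes that also have a promoter peak. Any other name was chosen with its value in view. Alternatives covered the score, annotation class, distance, repeats, merging, neighbour window and gene type.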

Additional observations from a re-analysis of the deposited data

How the results depend on the processing

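Of 61 alternative values, 48 stayed within 1.5 times the count or within the 95% interval of the value reported. Keeping peaks at or above the median score of the list left 111 peaks with a median score of 87, by construction. Keeping repeats raised the number to 353. For the 22 gene ends taken alone, the downstream share was 72.7% (49.8 to 89.3) and the median distance 3671 bp (2008 to 8563). Their median width of 152.5 bp (123 to 208), median score of 67.5 (38 to 87) and share with another peak within 10 kb of 22.7% (7.82 to 45.4) had intervals that hold the values of all 235 peaks. A minimum distance of 5 kb or 10 kb moved the median distance to 30756 or 34507 bp, by construction. The share with a neighbour was 29.8% with a window of 100 kb and 5.11% when neighbours were counted among the 235 peaks only. The restriction to chromosomes 1 to 22 and X was chosen after seeing the data, and it left 234 peaks. The protein-coding share stayed between 59.1% and 66.3% under all alternatives run. No paired analysis was possible because the list pools the libraries and gives no value per replicate. Libraries could not be left out for the same reason, and depth could not be weighed.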

Other observations

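Zinc finger genes named ZNF, ZSCAN or ZKSCAN were nearest to 5 of the 235 peaks, 2.13% (exact 95% interval 0.694 to 4.90), beside 2.96% of all peaks on assembled chromosomes and 4.26% (2.35 to 7.04) of promoter peaks. This grouping was chosen after the peaks were seen. The 5 were ZSCAN12P1 (score 172), ZNF786 (157), ZNF212 (59), ZNF287 (40) and ZNF469 (15, the lowest score of the set). CpG islands held those of ZSCAN12P1, ZNF786 and ZNF287. The peak of ZNF287 lay 20102 bp upstream (chromosome 17, 16492574 to 16492682), and that of ZNF212 lay 5641 bp upstream (chromosome 7, 148930998 to 148931205), 168192 bp from the ZNF786 peak.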
